A study of Mus musculus with 6 samples.

Results

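Interferon-stimulated genes, leaving out the guanylate-binding proteins and interferon regulatory factors, were followed in mouse brain microvascular endothelial cells given IL-36β. The set is a fixed list of 41 gene symbols, each found once among the 54532 genes of the deposited expression table. The list was taken by name, with no cut on measured values, though earlier results of these data were known when it was chosen. Of the 41, 38 reached an FPKM (a fragment count scaled for gene length and library size) of 0.5 or more in 3 or more libraries and were tested. The primary cells came from brain vessel fragments of wild-type C57BL/6J mice, passed through puromycin selection and grown to confluence. They were left untreated (libraries A0, B0 and D0) or exposed for 24 h to processed mouse IL-36β (labelled DEVD mIL-36β) at a concentration of 100 ng/ml (libraries A24, D24 and E24). No vehicle or time in culture is stated for the untreated cells. The labels do not say which libraries came from separate mice or cultures, so the p-values reflect only how these libraries vary, and that variation may be technical.

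Interferons bind receptor pairs at the cell surface, and the kinases JAK1, JAK2 and TYK2 then phosphorylate STAT proteins. For type I interferon, a complex with STAT2 and IRF9 binds the interferon-stimulated response element, whose core is GAAA, any 2 bases and GAAA again, while interferon-γ acts at the GAS element, whose core reads TTCNNNGAA. The induced genes encode proteins that recognise viral RNA, block virus entry and release, or attach the modifier ISG15 to other proteins. In brain endothelium this programme is known for antiviral defence and for effects on the blood-brain barrier. IL-36β is an IL-1 family cytokine whose receptor signals to NF-κB and not through JAK kinases.

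Promoter sequence was available from RefSeq (GRCm38.p6, 250 bases before to 50 after the start of transcription) for 31 of the 41 genes. On either strand this interferon core was present in 13 of these 31 genes, against 3.99% of all genes in the table. The GAS core was present in 10 of the 31, against 9.55% of all genes. The loose NF-κB pattern of GGG, any 5 bases and CC stood in 20 of the 31 and in 53.5% of all genes. The patterns can overlap one another, and a match describes the letters only. The 4 promoters given here carry the interferon core and belong to the genes with the largest IL-36β difference among such genes in the model with the library set, a choice made after the values were seen. They are read 5′ to 3′ on the gene's own strand, with each core or its reverse complement in capitals. They lie at chr7:141010695-141010994 (Ifitm3, minus strand), chr12:26456403-26456702 (Rsad2, minus strand), chr4:156200769-156201068 (Isg15, minus strand) and chr19:34583279-34583578 (Ifit3, plus strand).
Ifitm3: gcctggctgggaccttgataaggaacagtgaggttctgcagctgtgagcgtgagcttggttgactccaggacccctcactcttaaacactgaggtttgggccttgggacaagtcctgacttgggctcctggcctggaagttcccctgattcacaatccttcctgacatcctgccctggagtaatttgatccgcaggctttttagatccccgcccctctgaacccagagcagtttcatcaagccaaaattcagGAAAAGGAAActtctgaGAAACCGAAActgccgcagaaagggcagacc
Rsad2: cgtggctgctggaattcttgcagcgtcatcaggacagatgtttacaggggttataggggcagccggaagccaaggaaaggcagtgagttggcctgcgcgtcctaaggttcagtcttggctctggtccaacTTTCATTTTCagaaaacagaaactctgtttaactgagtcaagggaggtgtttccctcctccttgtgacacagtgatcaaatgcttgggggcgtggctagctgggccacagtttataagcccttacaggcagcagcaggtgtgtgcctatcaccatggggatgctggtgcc
Isg15: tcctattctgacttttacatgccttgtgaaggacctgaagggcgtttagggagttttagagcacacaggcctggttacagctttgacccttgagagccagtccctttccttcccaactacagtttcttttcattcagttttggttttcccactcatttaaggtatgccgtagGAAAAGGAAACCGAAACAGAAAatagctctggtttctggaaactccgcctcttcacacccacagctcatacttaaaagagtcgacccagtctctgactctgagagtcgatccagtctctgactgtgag
Ifit3: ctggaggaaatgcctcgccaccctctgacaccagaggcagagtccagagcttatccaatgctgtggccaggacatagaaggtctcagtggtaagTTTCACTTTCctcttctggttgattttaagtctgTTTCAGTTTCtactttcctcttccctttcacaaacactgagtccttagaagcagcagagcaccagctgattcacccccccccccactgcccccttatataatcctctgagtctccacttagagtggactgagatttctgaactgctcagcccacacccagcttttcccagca

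In Isg15 there were 3 cores, starting 78, 72 and 66 bases before the start and overlapping into a single run. Ifit3 carried 2 cores, 156 and 122 bases before the start, and its near copy Ifit3b carried the same 2 decamers at 188 and 154 bases. Ifitm3 had its cores just after the annotated start, at bases 3 and 20, and Rsad2 had 1 core, 120 bases before. Plscr1, the gene with the largest IL-36β difference, had no interferon core in this window and did have TTCNNNGAA. Its window, chr9:92249944-92250243 on the plus strand, lies after the deposited start of the gene, 92249750. The bases before that start were not searched.

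The 6 libraries held 15180389 to 19544689 reads assigned to genes, and tested members had 155 to 24145 reads over all libraries together. The deposited FPKM are scaled by a size factor per library. No source used here explains the letters of the library names, and the replicate numbers of the titles do not follow them. Untreated and IL-36β libraries number 2 and 1 under letters A and B, and 1 and 2 under letters D and E. Values are therefore given by letter, and a model that adds this library set (A with B, D with E) stands beside the treatment-only model. The set was adopted because an earlier look at these values had shown it, so its p-values and intervals may overstate the evidence. Summed endothelial markers were 2381 to 3080 FPKM, with Cdh5, the endothelial cadherin, at 865 to 1126 FPKM. Of 12 microglia and macrophage markers, Adgre1, Tyrobp and C1qa had 0 reads in every library and Ptprc was at most 0.0202 FPKM, and the list summed to 6.94 to 9.56 FPKM, nearly all of it Cd68. Of 5 plasmacytoid dendritic cell markers, Siglech, Tlr7 and Tlr9 also had 0 reads. The others had reads, Tcf4 at 13.3 to 17.4 FPKM and Bst2, itself a member, at 137 to 253 FPKM.

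The interferon-stimulated genes moved together from library to library, and the lowest and highest libraries were the same for most of them. Untreated library D0 was the lowest of the 6 in 34 of the 38 tested members (89.5%; 17.5% of all 12618 genes tested were lowest there). IL-36β library A24 was the highest in 29 members (76.3%; 16.2% of all genes). The median member stood at 0.13, 0.09 and -0.52 in A0, B0 and D0 and at 0.46, 0.00 and -0.01 in A24, D24 and E24, as log2(FPKM + 0.5) relative to the mean of the 6 libraries, while the same median over all genes was between -0.01 and 0.01 in each library. D24 and E24 thus lay near the level of A0 and B0, and both groups were spread by library letter. Within a letter most members were higher with IL-36β: A24 was above A0 in 33 of 38 members and D24 above D0 in all 38, with 33 higher in both pairs (86.8%; 28.3% of all genes).

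**Figure D1:**
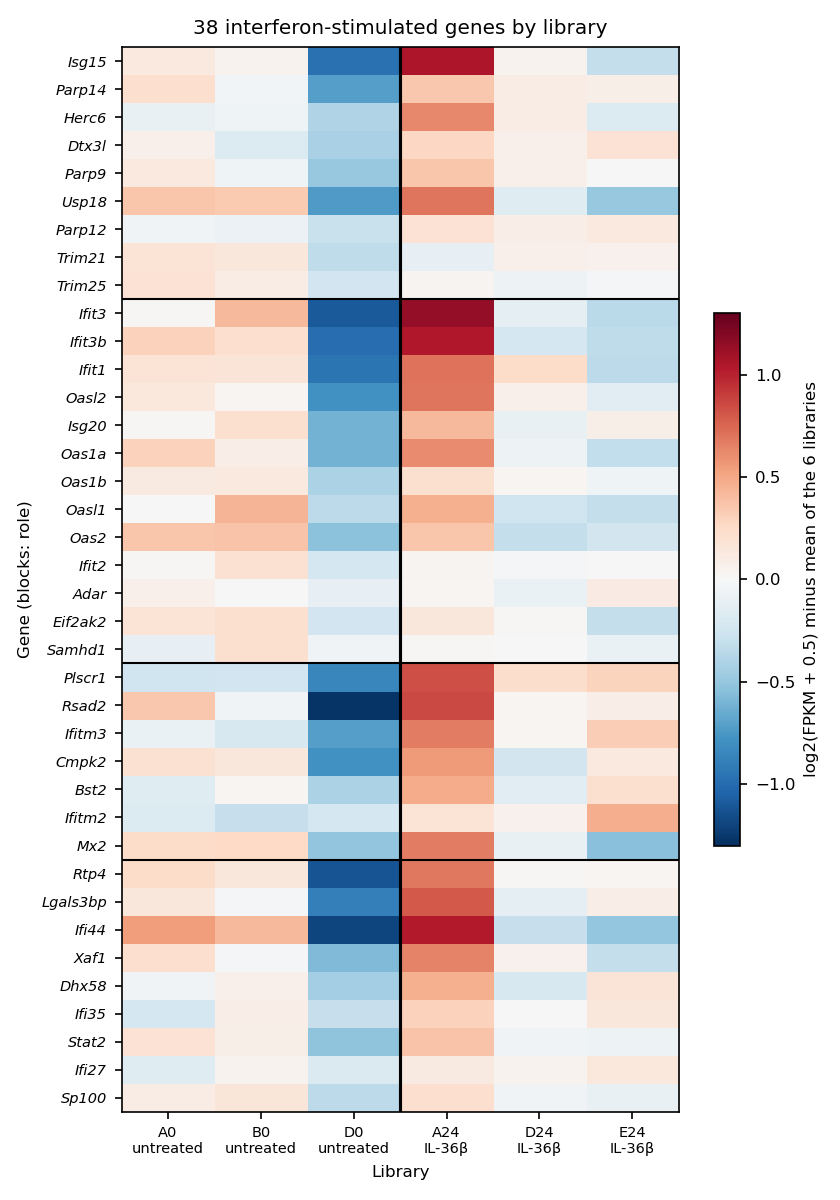
Each row is 1 of 38 interferon-stimulated genes, each column a library, and colour gives log2(FPKM + 0.5) minus that gene's mean over the 6 libraries; black lines separate the roles and the 2 groups of 3 libraries. D0 is the lowest library in 34 rows and A24 the highest in 29.

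Pooling the 3 libraries of each group, none of the 38 members passed the threshold of Benjamini-Hochberg adjusted p under 0.05 in limma, where 23 of all 12618 genes did (0.182%). At an unadjusted p under 0.05 there were 5 members, all higher with IL-36β: Plscr1, Ifitm2, Ifitm3, Parp12 and Dtx3l (13.2%; 5.96% of all genes were higher at that level). edgeR called none of the members (0.293% of all genes), and DESeq2 called Plscr1 (adjusted p = 0.00412) and Ifitm3 (adjusted p = 0.0483), both higher (5.26%; 2.06% of all genes). The groups did not overlap in 5 members, with every IL-36β library above every untreated one (13.2%; 8.95% of all genes). These were Plscr1, Ifitm2, Ifitm3, Parp12 and Ifi27. The median pooled log2 fold change was 0.27 over the members and 0.00 over all genes, and 33 of 38 were above 0 (86.8%; 50.5% of all genes). That median rested on 2 libraries, since it was 0.02 without D0 and 0.10 without A24.

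With the library set as a term, 7 of 38 members rose with IL-36β and none fell (18.4%; of all genes 0.674% rose in that model, 0.135% fell and 0.808% were called in either direction). The 7 were Plscr1, Ifit3b, Lgals3bp, Isg15, Ifitm3, Ifit3 and Oasl2. At an unadjusted p under 0.05 there were 26 members, all higher (68.4%; 7.12% of all genes). Fitted values above 0 numbered 37 of 38 (97.4%; 50.2% of all genes), with a median log2 fold change of 0.44 against 0.00 over all genes. The median difference was 0.38 within A and B and 0.45 within D and E. The number called was 0 without D0 or without A24, 1 without A0, B0 or D24, and 7 without E24. It was 1 when values were rescaled to TPM or left unfiltered, 0 with the title numbers as a block, 15 in DESeq2 and 16 with array weights.

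**Figure D2:**
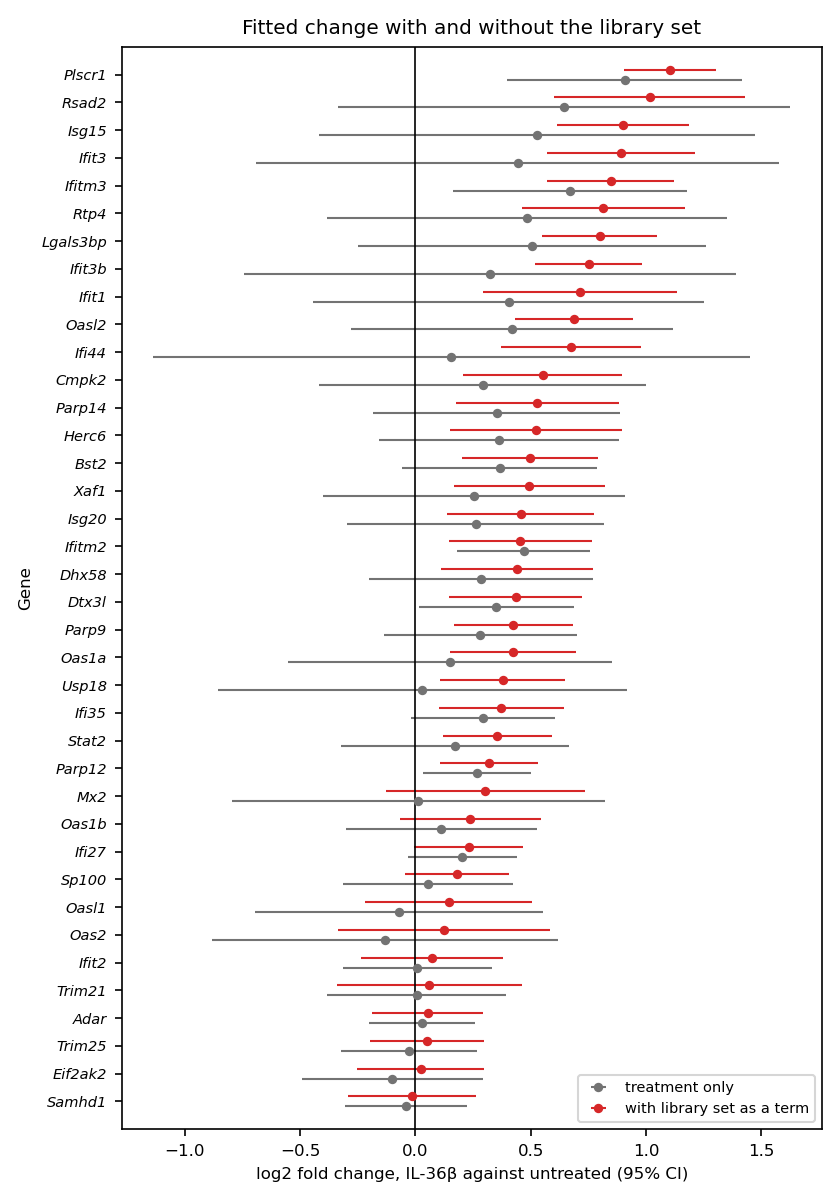
Fitted log2 fold changes of the 38 tested genes, IL-36β against untreated, with 95% confidence intervals from limma on 6 libraries, for treatment alone (grey) and with the library set as a term (red). Red intervals are narrower for most genes, and 37 of the 38 red points lie above 0.

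The same model gave the difference between the library sets. In D and E 11 of 38 members were lower than in A and B and none was higher (28.9%; of all genes 1.24% were lower, 0.507% higher and 1.74% called in either direction). The median difference was -0.54 on the log2 scale over the members and 0.01 over all genes, with 37 of 38 members below 0 (97.4%; 47.9% of all genes) and 28 lower at an unadjusted p under 0.05 (73.7%; 8.46% of all genes). In 16 members every D and E library lay below every A and B library (42.1%; 9.94% of all genes). Ifi44 differed most, 2.94-fold lower in D and E (95% confidence interval 2.38 to 3.62; limma adjusted p = 0.00416), followed by Ifit3 at 2.55-fold (2.03 to 3.19; limma adjusted p = 0.00911) and Ifit3b at 2.44-fold (2.08 to 2.86; limma adjusted p = 0.00302). Without D0 no member was called in this comparison, and without A24 only 1 was. Whether the IL-36β difference was unlike in the 2 sets was tested as an interaction, and limma called no member and no other gene (0%). At that test 2 members, Rtp4 and Trim21, had an unadjusted p under 0.05 (5.26%; 2.75% of all genes), and edgeR and DESeq2 called no member.

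Some markers of other cell types also moved with the libraries. Smooth muscle and pericyte markers summed to 423, 743 and 1400 FPKM in A0, B0 and D0 and 376, 829 and 536 FPKM in A24, D24 and E24, so this sum was highest in D0, where the interferon-stimulated genes were lowest, and lowest in A24, where they were highest. Acta2, smooth muscle actin, made up most of this sum, at 340 to 1323 FPKM, and all 10 of the markers had reads. Other markers of the list did not follow this order: Myh11 was highest in B0 (11.6 FPKM) and lowest in E24, Cnn1 was lowest in E24 (9.59 FPKM) and Pdgfrb highest there (3.39 FPKM). The 5 neuron markers summed to 6.80 to 6.91 FPKM in A and B and to 13.7 to 24.3 FPKM in D and E. Tubb3 made up most of that sum, Map2 went the other way, at 0.333 to 1.69 FPKM in A and B and 0.037 to 0.15 FPKM in D and E, and Snap25 had 0 reads. The 6 fibroblast markers summed to 0.724 to 0.951 FPKM in A and B and to 1.54 to 3.56 FPKM in D and E, with Pdgfra at 0.110 to 0.251 FPKM over all 6 libraries. Dcn, of the same list, was highest in A24, at 0.497 FPKM. Astrocyte markers summed to 3.56 to 5.27 FPKM and oligodendrocyte markers to 9.96 to 16.9 FPKM. In both lists the sums of A and B overlapped those of D and E. In these bulk libraries fewer cells of a type and less RNA per cell cannot be told apart, and the part of these cells in the differences was not tested.

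**Figure D3:**
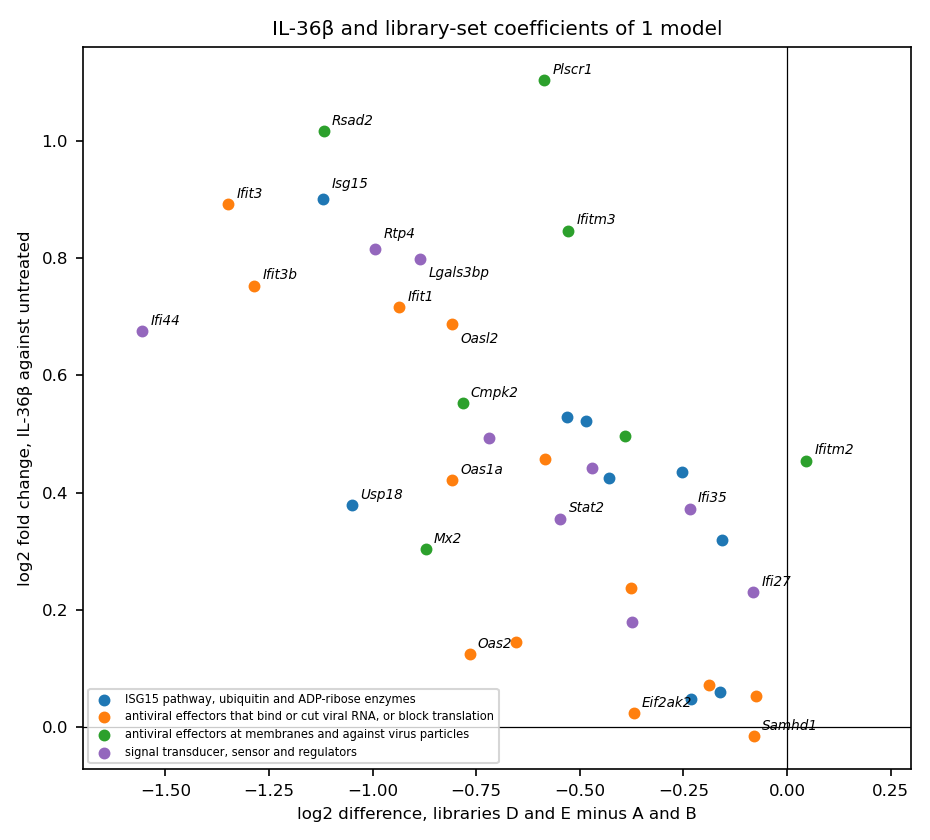
For each of 38 genes, the difference between libraries D and E and libraries A and B (x axis, log2) against the IL-36β difference (y axis, log2) from 1 limma model, coloured by role. Ifi44, Ifit3 and Ifit3b lie farthest left, Plscr1 and Rsad2 highest, and Ifitm2 alone lies right of 0.

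Members acting at membranes or against virus particles had the largest median difference with IL-36β of the 4 roles. All 7 tested of the 9 in this role had pooled fold changes above 0 (median log2 0.47), and 2 rose with the set as a term. Plscr1, a phospholipid scramblase that restricts virus fusion (chromosome 9, 92249750 to 92272278, plus strand, GRCm38), stood at 10.1, 10.2 and 6.55 FPKM in A0, B0 and D0 and at 22.2, 14.4 and 15.0 FPKM in A24, D24 and E24. All IL-36β libraries lay above all untreated ones, and the rise was alike in both letters, 2.21-fold from A0 to A24 and 2.2-fold from D0 to D24. The pooled fold was 1.88 (95% confidence interval 1.32 to 2.67; limma adjusted p = 0.220), from a mean of 8.93 ± 2.06 to 17.2 ± 4.37 FPKM (SD, n = 3 libraries per group). With the set as a term it was 2.15 (1.87 to 2.47; limma adjusted p = 0.00456), and Plscr1 was 1.5-fold lower in D and E (limma adjusted p = 0.0253). Folds from limma were computed on log2(FPKM + 0.5), so those of low genes come out too small. Transcript windows of 50 bases shared with another gene made up 13.2% in Plscr1.

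Ifitm3 was the most abundant of the 41 genes. It encodes a membrane protein that stops viruses fusing with endosomes (chromosome 7, 141009586 to 141010770, minus strand). Its levels were 316.8, 289.4 and 204.5 FPKM in A0, B0 and D0 and 531.4, 341.3 and 417.9 FPKM in A24, D24 and E24. The groups did not overlap, and the letter pairs differed by 1.68-fold (A) and 1.67-fold (D). Pooled, the fold was 1.59 (1.12 to 2.27; limma adjusted p = 0.369), and with the set as a term 1.80 (1.48 to 2.18; limma adjusted p = 0.0334). Its neighbour Ifitm2 was the only tested member not lower in D and E by the fitted value. Ifitm2 stood at 63.1, 57.9 and 60.6 FPKM untreated and at 80.6, 74.1 and 99.2 FPKM with IL-36β, a pooled fold of 1.39 (1.13 to 1.69; limma adjusted p = 0.264). It shares 48.5% of its transcript windows with the overlapping Gm45717 on the same strand, so its reads are uncertain. Ifitm1, the third gene of this 55.9 kb stretch, was at most 0.535 FPKM in any library, on 35 reads in all, and did not pass the filter.

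Rsad2 encodes viperin, which makes a chain-terminating nucleotide from CTP, and it lies beside Cmpk2, a nucleotide kinase gene, within 37.1 kb of chromosome 12. Rsad2 was 13.6, 10.2 and 4.05 FPKM in A0, B0 and D0 and 19.5, 10.7 and 11.2 FPKM in A24, D24 and E24. D24 and E24 lay between B0 and A0, and D0 was lowest. The pair difference was 2.65-fold for D and 1.43-fold for A. The pooled fold of Rsad2 was 1.56 (0.791 to 3.09; limma adjusted p = 0.615) and that with the set as a term 2.02 (1.52 to 2.70; limma adjusted p = 0.0700), and Rsad2 was 2.17-fold lower in D and E (limma adjusted p = 0.0340). Cmpk2, which lies outside the rule for genes described singly, ran from 2.42 FPKM in D0 to 6.87 FPKM in A24, with a fold of 1.47 with the set as a term (limma adjusted p = 0.188). Bst2, or tetherin, which holds budding virions at the cell surface, ranged from 136.7 FPKM in D0 to 253.0 FPKM in A24 and differed 1.41-fold with the set as a term (limma adjusted p = 0.180). Of the dynamin-like GTPases, Mx2 was 0.532 to 1.89 FPKM, and Mx1, whose gene carries an inactivating deletion in C57BL/6 mice, had 12 reads in all libraries together.

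Genes for proteins that bind or cut viral RNA, or that block translation, had the smallest median difference of the 4 roles. Of its 14 members 13 were tested, with pooled log2 fold changes from -0.13 to 0.44 and a median of 0.11. With the set as a term 3 rose (Ifit3, Ifit3b and Oasl2), and 4 of the 13 were lower in D and E. IFIT proteins bind RNA with foreign ends, and their genes lie within 99.3 kb of chromosome 19. Ifit3 (34583531 to 34588731, plus strand) stood at 16.7, 22.3 and 7.49 FPKM in A0, B0 and D0 and at 37.3, 15.1 and 12.9 FPKM in A24, D24 and E24. A24 was above every other library, while D24 and E24 lay below A0 and B0, so the groups overlapped. The A pair differed 2.23-fold and the D pair 2.01-fold, and the fold of Ifit3 was 1.36 pooled (0.620 to 2.98; limma adjusted p = 0.772) and 1.86 with the set as a term (1.48 to 2.32; limma adjusted p = 0.0478). Its near copy Ifit3b (34607970 to 34613401, plus strand) also had A24 highest and D0 lowest, at 6.62, 6.22 and 2.41 FPKM untreated and 11.4, 4.44 and 4.12 FPKM with IL-36β, and a fold of 1.68 with the set as a term (1.43 to 1.98; limma adjusted p = 0.0308). Of all windows of 50 bases in the longest transcript, 51.2% of those of Ifit3 and 45.0% of those of Ifit3b also occurred in transcripts of another gene (GENCODE vM21), so the split of reads between these copies is uncertain.

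Ifit1, which binds capped RNA that lacks the host's cap methylation, was 10.6, 10.5 and 4.58 FPKM in A0, B0 and D0 and 15.5, 11.1 and 7.25 FPKM in A24, D24 and E24. The groups overlapped through E24. Its fold was 1.32 pooled (0.735 to 2.38; limma adjusted p = 0.721) and 1.64 with the set as a term (1.23 to 2.20; limma adjusted p = 0.176). Ifit2, from the same locus, was 1.97 to 2.82 FPKM in all libraries, with a pooled fold of 1.01 (0.804 to 1.26).

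OAS enzymes make oligoadenylates that activate RNase L, and their like proteins OASL1 and OASL2 are known to act apart from that pathway. Oasl2 (chromosome 5, 114896936 to 114912234, plus strand) stood at 7.79, 7.14 and 3.84 FPKM in A0, B0 and D0 and at 11.7, 7.36 and 6.32 FPKM in A24, D24 and E24. E24 lay below A0 and B0, so the groups overlapped. Oasl2 rose 1.61-fold with the set as a term (1.35 to 1.92; limma adjusted p = 0.0498), against a pooled fold of 1.34 (0.825 to 2.17; limma adjusted p = 0.645). Its neighbour Oasl1, which dampens interferon production in mice by blocking translation of Irf7, was 2.71, 3.84 and 2.04 FPKM untreated and 3.93, 2.17 and 2.09 FPKM with IL-36β, with folds of 0.951 pooled and 1.11 with the set as a term (0.860 to 1.42; limma adjusted p = 0.705). Oas1a ranged from 7.14 FPKM in D0 to 17.4 FPKM in A24; 57.6% of its windows of 50 bases are shared with another gene, most with Oas1g. Oas1b, listed in the table as a polymorphic pseudogene, was 1.60 to 2.72 FPKM, Oas2 was 0.0584 to 0.543 FPKM, and Oas3 had 68 reads in all and did not pass the filter.

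Several RNA-acting members differed little between the groups. Eif2ak2 encodes PKR, the kinase that halts translation on double-stranded RNA, and stood at 13.2, 13.5 and 9.68 FPKM in A0, B0 and D0 and 12.9, 11.7 and 9.27 FPKM in A24, D24 and E24. Its fold was 0.933 pooled (0.711 to 1.22; limma adjusted p = 0.853) and 1.02 with the set as a term (0.840 to 1.23; limma adjusted p = 0.942). Samhd1, which depletes nucleotides needed for viral DNA synthesis, was 6.28, 7.94 and 6.56 FPKM untreated and 6.89, 6.81 and 6.37 FPKM with IL-36β, a pooled fold of 0.972 (0.810 to 1.17). Adar, which edits double-stranded RNA, had a pooled fold of 1.02 (0.870 to 1.2). Isg20, an exonuclease gene, ran from 1.68 FPKM in D0 to 3.98 FPKM in A24.

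**Figure D4:**
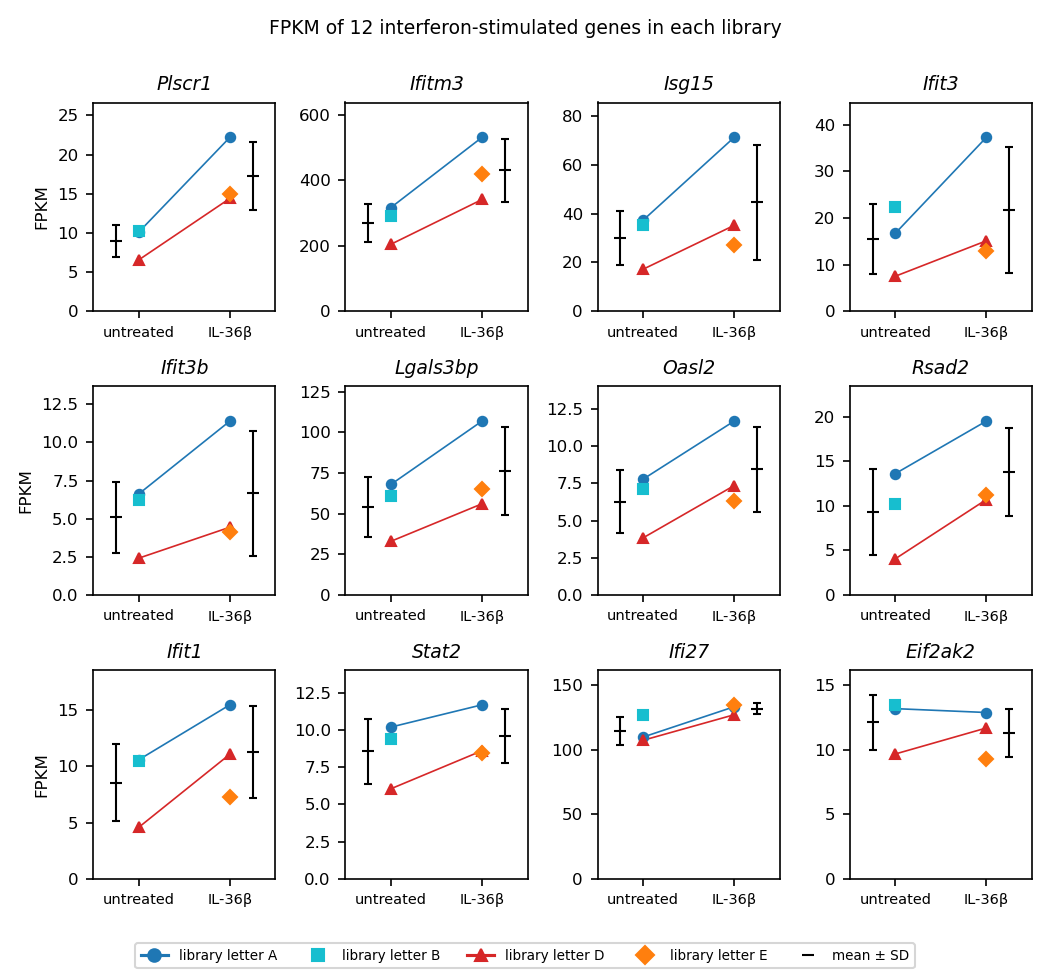
FPKM of 12 genes in the 3 untreated and 3 IL-36β libraries, with symbols for the library letter, lines joining A0 to A24 and D0 to D24, and bars for mean ± SD of each group. Plscr1 and Ifitm3 do not overlap between groups, while in Isg15, Ifit3 and Ifit3b the letter A line lies above the letter D line and both slope up.

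In the ISG15, ubiquitin and ADP-ribose role all 9 members were tested, 8 with a pooled fold change above 0, and Isg15 alone rose with the set as a term. Isg15, the ubiquitin-like modifier itself (chromosome 4, 156199424 to 156200818, minus strand), stood at 37.3, 35.2 and 17.2 FPKM in A0, B0 and D0 and at 71.3, 35.2 and 27.3 FPKM in A24, D24 and E24. D24 matched the untreated B0, and A24 was above every other library. The difference was 1.96-fold within A and B and 1.78-fold within D and E. Isg15 had a pooled fold of 1.44 (0.748 to 2.78; limma adjusted p = 0.673), rose 1.87-fold with the set as a term (1.53 to 2.27; limma adjusted p = 0.0312) and was 2.17-fold lower in D and E (1.78 to 2.65; limma adjusted p = 0.0103). Usp18, which removes ISG15 and restrains the type I receptor, differed more by letter than by treatment: it was 9.53 FPKM in D0 and 26.5 FPKM in A24, 2.07-fold lower in D and E (limma adjusted p = 0.0109), with a fold of 1.3 for IL-36β in the same model (1.08 to 1.57; limma adjusted p = 0.238).

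Herc6, the main ISG15 ligase of mice, was 1.01 to 2.55 FPKM and shares 23.8% of its transcript windows with Gm45193. Parp9 and its ubiquitin ligase partner Dtx3l are encoded head to head on chromosome 16, with Parp14 in the same 139.7 kb. The 3 genes had folds of 1.34, 1.35 and 1.44 with the set as a term, none called (limma adjusted p = 0.181, 0.216 and 0.218). Parp9 and Dtx3l share 458 exon bases on opposite strands, and no source used here gives the strand setting of the counting, so reads there cannot be told apart. Parp12, another ADP-ribosyltransferase gene, did not overlap between groups, at 8.29 to 9.89 FPKM untreated and 10.9 to 11.7 FPKM with IL-36β, with a pooled fold of 1.2 (1.02 to 1.41; limma adjusted p = 0.434). The ubiquitin ligase genes Trim25, which serves RIG-I signalling, and Trim21, an intracellular antibody receptor, had pooled folds of 0.980 (0.799 to 1.2) and 1.00 (0.767 to 1.31).

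The last role holds the signal transducer Stat2, the sensor regulator Dhx58 and 7 further members, all 9 tested and all with a pooled fold change above 0 (median log2 0.26). Stat2, the subunit particular to the type I and III interferon complex, was 10.2, 9.42 and 6.05 FPKM in A0, B0 and D0 and 11.7, 8.61 and 8.46 FPKM in A24, D24 and E24. The groups overlapped. Stat2 had a fold of 1.13 pooled (0.800 to 1.59; limma adjusted p = 0.793) and 1.28 with the set as a term (1.09 to 1.51; limma adjusted p = 0.214). Lgals3bp, a secreted galectin-3 partner (chromosome 11, 118392751 to 118402092, minus strand), stood at 68.0, 60.9 and 33.0 FPKM untreated and at 107.0, 56.1 and 65.4 FPKM with IL-36β. D24 lay below A0 and B0, and the pairs differed 1.57-fold (A) and 1.70-fold (D). Lgals3bp rose 1.74-fold with the set as a term (1.47 to 2.07; limma adjusted p = 0.0308), against a pooled fold of 1.42 (0.841 to 2.39; limma adjusted p = 0.608).

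Ifi27, a small membrane protein gene and the most abundant of this role, was 109.7, 126.7 and 107.2 FPKM in A0, B0 and D0 and 133.2, 127.0 and 134.7 FPKM in A24, D24 and E24. The groups did not overlap, by a narrow margin between B0 and D24, and Ifi27 hardly differed by letter (1.06-fold lower in D and E, 0.900 to 1.24). Its pooled fold was 1.15 (0.978 to 1.36; limma adjusted p = 0.539). Ifi44 was the opposite case, at 4.64 and 4.24 FPKM in A0 and B0, 1.04 FPKM in D0, and 6.73, 2.38 and 1.99 FPKM in A24, D24 and E24. Rtp4, which restrains viral replication, ran from 6.38 FPKM in D0 to 23.6 FPKM in A24 and was 1.99-fold lower in D and E (limma adjusted p = 0.0287), with a fold of 1.76 for IL-36β (limma adjusted p = 0.0882). Ifi35, Dhx58, Xaf1 and Sp100 had folds of 1.29, 1.36, 1.41 and 1.13 with the set as a term, and none was called.

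By promoter letters, 12 tested members had the interferon core, of which 4 rose with the set as a term (0.674% of all genes rose). The 12 had a median log2 fold change of 0.61 (range 0.02 to 1.02). Of 17 tested members with a promoter sequence and no such core 3 rose (median 0.44, range -0.02 to 1.10). The ranges overlapped almost wholly: Eif2ak2 and Trim21, with folds of 1.02 and 1.04, carry the core, and Plscr1, at 2.15, has none in this window. The 9 tested members without a promoter sequence had a median of 0.38 (range 0.12 to 0.82), and none was called.

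The interferon ligand genes examined were at or under the detection floor. Of the Ifna genes only Ifna1, Ifna2 and Ifna4 were examined, and no IL-36β time before 24 h was sampled. Of 9 ligand genes Ifna1, Ifna2, Ifna4, Ifnk, Ifnl2 and Ifnl3 had 0 reads in all 6 libraries, which at 3 reads per library allows levels of up to 0.144 to 0.348 FPKM, counting error only. Ifnb1 had 5 reads, all in the untreated libraries B0 and D0, and Ifne and Ifng had 1 read each.

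Receptor chains had all 5 tested members higher in every IL-36β library than in any untreated one (8.95% of all genes), and limma called none of them in either model. DESeq2 called Ifngr1 by treatment alone (adjusted p = 0.00644). Ifngr1, a chain of the interferon-γ receptor, stood at 44.1, 39.2 and 31.2 FPKM in A0, B0 and D0 and at 61.5, 52.9 and 65.4 FPKM in A24, D24 and E24, a pooled fold of 1.57 (1.24 to 1.99; limma adjusted p = 0.193). Ifnar1 and Ifnar2, the type I receptor chains, had pooled folds of 1.40 (1.13 to 1.73) and 1.40 (1.14 to 1.73), and Ifngr2 1.32 (1.09 to 1.61; limma adjusted p = 0.279, 0.264 and 0.317). The median difference of the 5 receptor chains between D and E and A and B was -0.05 on the log2 scale, with 4 of 5 below 0, and D0 was the lowest library in 3 of them.

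Jak1, Jak2, Tyk2 and Irf9, of the kinases and the STAT complex, were not called by limma in either model. Jak2 was 19.1 to 24.2 FPKM, with a pooled fold of 1.08 (0.918 to 1.27). Jak1 was 30.5 to 32.7 FPKM in all libraries, with a pooled fold of 1.01 (0.888 to 1.15), and Tyk2 had 1.22 (1.03 to 1.46; limma adjusted p = 0.432). Irf9 was 8.79 to 12 FPKM, a pooled fold of 1.02 (0.817 to 1.26). Of 5 tested feedback inhibitors limma called none in either model. Socs3, which DESeq2 called by treatment alone (adjusted p = 0.0399), had a pooled fold of 1.66 (1.12 to 2.47; limma adjusted p = 0.385).

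Among 10 sensors and adaptors upstream of interferon, Ikbke alone was called. limma called it with the set as a term and not by treatment alone, and DESeq2 called it by treatment alone (adjusted p = 2.39e-07), as did limma with the library letter as a block (adjusted p = 0.0177). This kinase gene, itself known as an NF-κB target (chromosome 1, 131254343 to 131279606, minus strand), was 1.07, 0.892 and 0.440 FPKM untreated and 4.74, 2.78 and 2.26 FPKM with IL-36β. The groups did not overlap, and Ikbke rose 3.37-fold (2.66 to 4.27; limma adjusted p = 0.00593), against 2.85-fold pooled (1.79 to 4.53; limma adjusted p = 0.131). In a group of 5 genes that NF-κB and interferon both induce, Psmb10 of the immunoproteasome and Tapbp of peptide loading rose in the pooled test, 2.33-fold (1.85 to 2.93; limma adjusted p = 0.0322) and 1.94-fold (1.61 to 2.34; limma adjusted p = 0.0359). Those calls were lost when any 1 library was left out, at limma adjusted p of 0.0665 to 0.161 for Psmb10 and 0.0838 to 0.190 for Tapbp, while the log2 fold changes stayed at 1.10 to 1.31 and 0.88 to 1.06. They were also lost without a filter, with TPM and with the title numbers as a block. Between the library sets Psmb10 and Tapbp were not called (limma adjusted p = 0.556 and 0.827). The pooled test thus called 2 of the 5 genes of this group, against 0.182% of all genes. The group was chosen with earlier results of these data known, so this share is not independent evidence. limma called Irf1, Psmb9 and Tap1 in neither model. Irf1 had a pooled fold of 1.98 without overlap between groups (limma adjusted p = 0.24). DESeq2 called Irf1 by treatment alone (adjusted p = 0.00484). In Psmb9 and Tap1 the groups overlapped, with pooled folds of 1.4 and 1.03 (limma adjusted p = 0.511 and 0.951). Like most members, both were highest in A24 and lowest in D0.

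**Figure D5:**
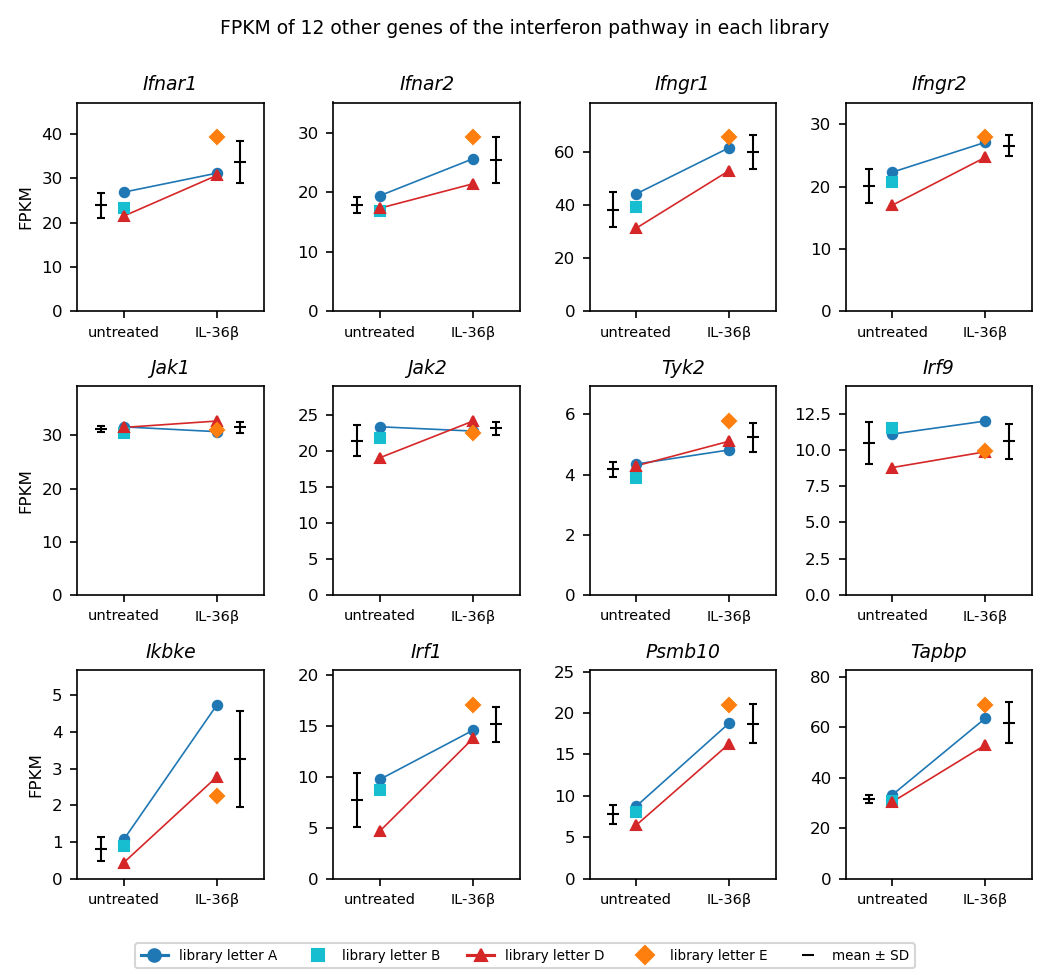
FPKM of 12 receptor, kinase, STAT complex and NF-κB-responsive genes in each library, with symbols for the library letter, lines joining A0 to A24 and D0 to D24, and bars for mean ± SD. Ikbke, Irf1, Psmb10, Tapbp, Tyk2 and the 4 receptor chains do not overlap between groups, and Jak1 stays between 30.5 and 32.7 FPKM.

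The authors' deposited table holds 660 genes, against 54532 genes with deposited FPKM. Its unadjusted p-values reach at most 0.05, and no gene in it has an adjusted p under 0.05. It holds 5 of the 41 members, all with a positive log2 fold change: Plscr1 (1.02), Isg15 (0.92), Ifitm3 (0.70), Ifi35 (0.32) and Ifitm2 (0.30). Their p-values in the authors' deposited table run from 0.00548 to 0.0216, and the adjusted p is 0.9987 for each of the 5. In the authors' deposited table of ontology terms for higher genes, response to interferon-beta has 9 genes, of which Plscr1, Ifitm3 and Ifitm2 are members (adjusted p = 8.60e-05), and response to virus has 23 genes with 4 members (adjusted p = 8.46e-06). Response to interferon-gamma, defense response to virus and response to type I interferon have an adjusted p of 4.35e-06, 0.0002 and 0.00561 there. The term type I interferon signaling pathway has 4 genes with 2 members and an adjusted p of 0.0618.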

How the data were processed

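RNA sequencing was done on 3 untreated and 3 IL-36β libraries, made with a stranded mRNA kit, per the labels' protocols. Genome build GRCm38 and the tools featureCounts 1.50-p3, HISAT2 2.05, DESeq2 1.38.3, StringTie and fastp are listed in the submitters' processing notes, without roles. The authors deposited FPKM for 54532 genes, and for 660 genes raw counts, a signal (counts divided by size factors), log2 fold changes and p-values, with a table of ontology terms and their p-values. A further 8 columns of the deposited table, from 4 libraries that no label names, were not used. In 589 (IL-36β) and 569 (untreated) genes the deposited group mean lies more than 1% from the mean of the 3 libraries.

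FPKM times gene length, over 1 divisor per library, gave whole reads in 100% of values (within 0.01), equal to the deposited counts in all 660 genes. Columns were matched by library name. No replicate pair looked like a repeat of 1 library, with counts 10.1 to 37.2 times as variable as sampling allows (chi-square over degrees of freedom).

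The test was limma 3.58.1 (R 4.3.3), trended and two-sided, on log2(FPKM + 0.5), over 12618 genes with FPKM of at least 0.5 in at least 3 libraries, Benjamini-Hochberg adjusted over all of them. edgeR 4.0.16 and DESeq2 1.42.0 were run on the recovered reads. On reads simulated for this comparison (5 runs, about 12417 genes, 200 changed), limma by treatment alone called 79% of 2-fold, 96.9% of 4-fold and 0.1% of unchanged genes. The simulated reads carried no difference between the library sets. For genes that differ by set, as most members did, the shares of changed genes called can therefore be too high. The members, lists, library sets and alternatives were chosen with earlier results of these data known. Members described singly were those past the threshold in either model, the 3 largest and 3 smallest pooled differences among members whose mean reached 1 FPKM in either group, the most abundant of each role, and Isg15, Ifit1, Ifit3, Ifitm3 and Stat2. Pathway genes were those past the threshold in either model and fixed ones (Ifnar1, Ifnar2, Ifngr1, Ifngr2, Jak1, Tyk2, Irf9, Ifnb1, and 1 that is not reported here). Others named with values were chosen after their values were seen. Motifs were counted in RefSeq promoters of GRCm38.p6, and overlaps in GENCODE vM21 (GRCm38), whose coordinates equal the deposited ones for all 41 members.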

Additional observations from a re-analysis of the deposited data

How the results depend on the processing

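The count of all genes called, 23, was 0 without a filter, 13 with TPM, 37 in edgeR, 260 in DESeq2, 78 with the library letter as a block, 102 with the library set as a term, and 2 to 8 when each library was left out. By treatment alone no member was called except 2 in DESeq2, and none was called in limma when each library was left out. Models with a further term called 3 members with the letter block and 7 with the set. Under the letter block only letters A and D hold both groups. With the set as a term the 7 became 1 without a filter, 1 with TPM, 16 with array weights, 15 in DESeq2, and 0 to 7 over left-out libraries. The 11 members lower in D and E became 2 without a filter, 26 with array weights, 18 in edgeR, 22 in DESeq2, and 0 to 15 over left-out libraries. The causes were not tested. The median pooled log2 fold change of the members was 0.02 to 0.37 over left-out libraries and 0.17 to 0.43 over the other settings without the set. The relaxed core GAAANNGAA raised the members with a promoter match from 13 to 16.

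With the title number as a replicate block, 13 genes and 0 members were called by treatment alone, and 0 members for either coefficient with the set. Same-numbered libraries did not all deviate together (correlations of 0.21, -0.14 and 0.21 over 12618 genes). Not every library correlated best with its own number. A0 and A24 share the letter as well as the number. Libraries of the same letter had correlations of 0.21 (A) and 0.28 (D).

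Directions turned for genes near 0 (pooled log2 fold changes). Eif2ak2, at -0.10, was 0.11 with the letter block, 0.02 with the set term, 0.10 within D and E and -0.25 to 0.03 over left-out libraries, above 0 without E24. Oasl1, at -0.07, was 0.27 with the letter block, 0.15 with the set term, 0.24 within A and B, 0.05 within D and E and -0.32 to 0.13 over left-out libraries, at 0.13, 0.04 and 0.06 without B0, D24 or E24. Samhd1, at -0.04, was 0.09 with the letter block, 0.01 within D and E and -0.10 to 0.05 over left-out libraries, at 0.05 without B0. Over left-out libraries Ifit3 was -0.02 (without A24) to 0.76, Ifit3b -0.12 (without A24) to 0.57 with -0.09 without D0, and Stat2 -0.05 (without D0) to 0.31. The interaction could not be fitted without D0 or A24, nor with a block. Members with few reads (Mx1, Oas3, Ifitm1) allow no comparison at this depth.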
